A study of Mus musculus with 12 samples.

Results

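Axl, Mertk and Tyro3, the TAM receptor tyrosine kinases, and their ligands Gas6 and Pros1 were followed in the left ventricle (LV) of 12-week-old mice by 3′-end RNA sequencing. These 5 genes, of 46983 in the files, were chosen by name, with earlier results of the same libraries already known, among them the higher Axl level in diabetes-exposed Hif1a+/- hearts. Axl was also on the study's own list of changed genes. The levels and differences of the members are therefore given as a description, with standard errors and no p. All 5 passed the filter on low counts that 14706 genes passed.

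The mice were offspring of female FVB mice (Wt), either non-diabetic or made diabetic with streptozotocin, mated with non-diabetic males heterozygous for a global deletion of Hif1a, which encodes the oxygen-regulated subunit of hypoxia-inducible factor 1. Wt and Hif1a+/- offspring from non-diabetic and from diabetic pregnancies made 4 groups of 3 LVs, from mice of different litters within a group. The deletion was not limited to a cell type, so that Hif1a+/- hearts lacked 1 copy in every cell, and Wt and Hif1a+/- mice had Wt mothers. Samples are called by the animal numbers in their titles: Wt non-diabetic replicates 25, 42 and 89, Wt diabetic replicates 50, 7 and 80, Hif1a+/- non-diabetic replicates 14, 32 and 44, and Hif1a+/- diabetic replicates 66, 72 and 77.

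TAM receptors sit in the plasma membrane and bind vitamin K-dependent ligands that carry phosphatidylserine from the surface of dying cells. Gas6 activates each of the TAM receptors and is the ligand of Axl, whereas Pros1, which also circulates as an anticoagulant cofactor of protein C, acts through Mertk and Tyro3. In tissue, these receptors drive the engulfment of dying cells and damp cytokine and interferon signalling. Mertk is known as an engulfment receptor of resident cardiac macrophages, and Axl is expressed by macrophages, dendritic cells, fibroblasts and vascular cells.

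Depth ranged from 16132442 to 39812939 counts in genes per library. Values are given as CPM, counts relative to the TMM-scaled library size. Hif1a itself averaged 61.5 CPM in Wt non-diabetic, 55.3 in Wt diabetic, 85.7 in Hif1a+/- non-diabetic and 72.3 in Hif1a+/- diabetic samples. All 3 Hif1a+/- samples were above all 3 Wt samples of the same kind of pregnancy. The reads come from 3′ ends, and the deleted part of Hif1a lies near the start of the gene, so this level does not check the genotype. The sample labels give the mice as female and the study's design text as male. Y-linked genes were above Xist in 11 of the 12 libraries, the exception being Hif1a+/- diabetic replicate 72. The LV label was met by cardiomyocyte markers, whose summed level over 5 genes was 63234 to 74092 CPM, while 3 atrial markers summed to 3.41 to 17.9 CPM.

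The genes lie on 4 chromosomes of the GRCm38 build. Axl (ENSMUSG00000002602) spans chr7:25757273-25788705 on the minus strand, Mertk (ENSMUSG00000014361) chr2:128698956-128802894 and Tyro3 (ENSMUSG00000027298) chr2:119797733-119818104, both on the plus strand. Gas6 (ENSMUSG00000031451) spans chr8:13465374-13494490 on the minus strand and Pros1 (ENSMUSG00000022912) chr16:62854307-62929346 on the plus strand. No other counted gene overlaps Axl, Tyro3 or Pros1. Mertk overlaps the antisense gene Gm14011 and the small RNA gene Gm23172, and Gas6 overlaps Tmem255b on the other strand. The strand setting of the counting is not given in the sources used here, so that reads of Mertk and Gas6 could include reads of these neighbours.

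The sequences just before the start sites are shown for Axl, the member that differed most between groups, for its ligand Gas6, and for Mertk, a receptor that did not follow it. Each is the 250 bases before the RefSeq start in GRCm38.p6, written 5′ to 3′ on the strand of the gene, at chr7:25788734-25788983 for Axl, chr8:13494536-13494785 for Gas6 and chr2:128698665-128698914 for Mertk. Capitals mark the GC box GGGCGG, searched on both strands, so that a box on the other strand reads CCGCCC.
Axl: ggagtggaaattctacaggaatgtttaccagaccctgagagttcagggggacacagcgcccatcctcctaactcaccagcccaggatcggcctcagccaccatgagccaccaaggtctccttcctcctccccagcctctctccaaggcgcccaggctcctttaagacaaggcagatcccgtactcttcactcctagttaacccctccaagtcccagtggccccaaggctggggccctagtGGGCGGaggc
Gas6: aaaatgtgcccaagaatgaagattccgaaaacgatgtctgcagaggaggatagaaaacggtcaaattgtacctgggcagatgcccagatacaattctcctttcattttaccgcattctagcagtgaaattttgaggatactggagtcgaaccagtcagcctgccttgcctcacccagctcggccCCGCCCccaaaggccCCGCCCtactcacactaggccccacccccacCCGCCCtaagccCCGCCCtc
Mertk: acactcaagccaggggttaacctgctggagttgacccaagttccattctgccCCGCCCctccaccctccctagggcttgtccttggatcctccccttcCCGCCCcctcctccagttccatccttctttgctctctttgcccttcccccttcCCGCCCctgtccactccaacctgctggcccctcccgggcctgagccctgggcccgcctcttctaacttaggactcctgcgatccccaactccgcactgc

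Axl held 1 GC box, 10 to 5 bases before its start, Gas6 held 4 and Mertk 3. Tyro3 and Pros1, not printed, held 3 and 5, the last 2 of Pros1 overlapping each other. A GC box stood in 32.7% of the 32851 mouse promoters of this length. The cores of the hypoxia response element were also searched on both strands. ACGTG was in none of the 5 windows, against 16.6% of all promoters. GCGTG was in that of Tyro3 only, 189 to 185 bases before the start, against 28.2% of all. The Tyro3 window, chr2:119799264-119799513, precedes the RefSeq start and lies inside the gene span given above, not before it. TATAAA was in none of the 5, against 12.4% of all. Base composition ranged from 54.8% G and C for Gas6 to 73.2% for Tyro3, with 60.0% for Axl, 63.6% for Mertk and 64.4% for Pros1. These matches describe letters in a short window and say nothing of binding.

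Among the receptors, Axl was higher on average in both diabetes-exposed groups, whereas Mertk and Tyro3 overlapped in each of the 5 comparisons made. Axl stood at 109, 93.3 and 98.0 CPM in Wt non-diabetic replicates 25, 42 and 89. It stood at 105, 155 and 144 CPM in Wt diabetic replicates 50, 7 and 80. In Hif1a+/- non-diabetic replicates 14, 32 and 44 it was 108, 104 and 91.5 CPM. Hif1a+/- diabetic replicates 66, 72 and 77 had 146, 142 and 199 CPM. All 3 Hif1a+/- diabetic samples were thus above all 6 non-diabetic samples, which stayed between 91.5 and 109 CPM. Of the Wt diabetic samples, replicates 7 and 80 were above that range and replicate 50 was inside it.

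**Figure D1:**
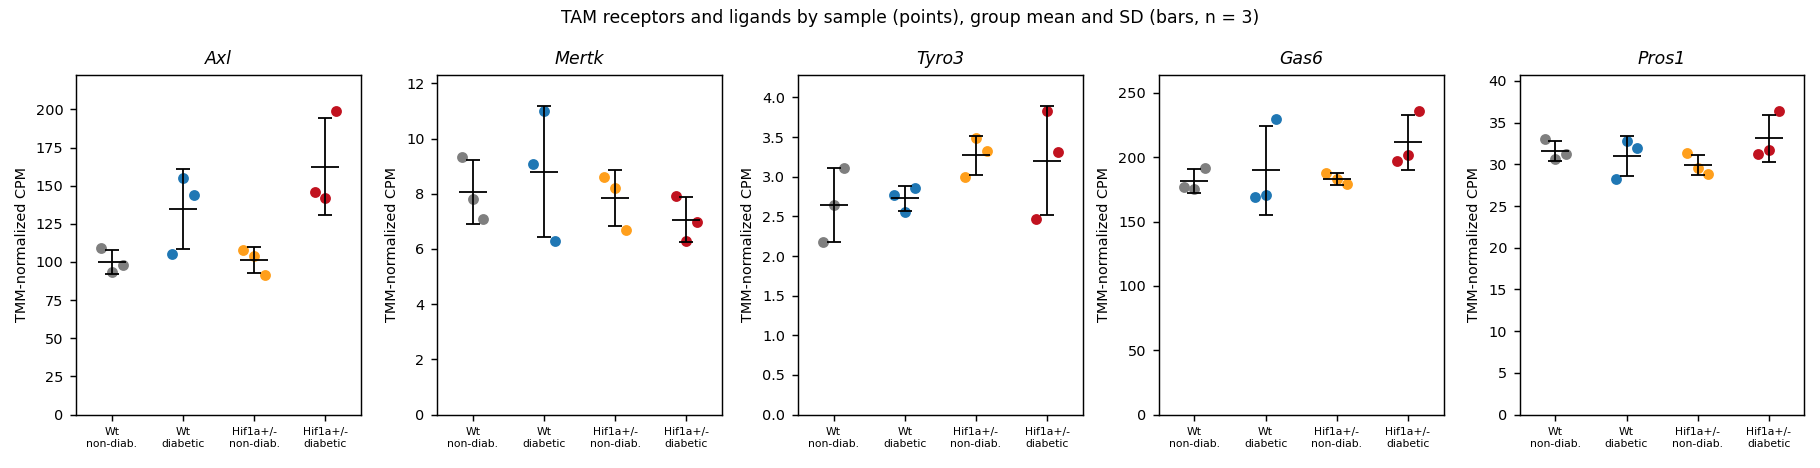
CPM of Axl, Mertk, Tyro3, Gas6 and Pros1 (y axes, TMM-normalized, each from 0) in the 4 groups of 3 samples (x axes), with points for samples and bars for the group mean and SD. Axl was 142 to 199 CPM in the Hif1a+/- diabetic samples and 91.5 to 109 CPM in the 6 non-diabetic samples, while Mertk, Tyro3 and Pros1 overlapped in each of the 5 comparisons made.

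Group means of Axl were 100 ± 8.29 CPM in Wt non-diabetic, 135 ± 26.5 in Wt diabetic, 101 ± 8.45 in Hif1a+/- non-diabetic and 162 ± 31.7 in Hif1a+/- diabetic hearts (SD, n = 3 each). The coefficient of variation was 8.27% in Wt non-diabetic and 19.7% in Wt diabetic samples. Axl had 1757 to 5684 counts per library, so that counting alone accounts for an error of 1.33% to 2.39%.

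In Hif1a+/- hearts Axl was 1.61-fold higher after diabetic than after non-diabetic pregnancy, a log2 difference of 0.69 ± 0.15 (SE, 95% interval 0.36 to 1.01). Against Wt non-diabetic hearts the fold was 1.62 (log2 0.70, interval 0.37 to 1.02). In Wt hearts the difference between diabetic and non-diabetic pregnancy was 0.43 ± 0.15 on the log2 scale (interval 0.10 to 0.75), 1.34-fold, with overlapping samples. Between genotypes Axl overlapped. Hif1a+/- minus Wt was 0.01 after non-diabetic pregnancy (interval -0.32 to 0.34) and 0.27 after diabetic pregnancy (interval -0.06 to 0.60). The difference of the 2 diabetes effects, the interaction, was 0.26 ± 0.21 (interval -0.20 to 0.72). This interval holds 0, and both a smaller and a larger diabetes effect in Hif1a+/- than in Wt hearts.

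Hif1a+/- diabetic replicate 77 had the highest Axl level. Without it, the log2 difference within Hif1a+/- hearts was 0.51, that between the diabetic groups 0.10 and the interaction 0.09. Without replicate 72, the library that went against the sex of the others, the difference within Hif1a+/- hearts was 0.78. Over all libraries left out in turn, it lay between 0.51 and 0.78, and the Wt difference between 0.31 and 0.58. In the order of all tested genes by log2 difference, Axl was number 390 from the top of 14706 within Hif1a+/- hearts and number 508 within Wt hearts.

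Mertk, the engulfment receptor, was 9.34, 7.82 and 7.07 CPM in Wt non-diabetic replicates 25, 42 and 89, and 9.09, 11.0 and 6.28 CPM in Wt diabetic replicates 50, 7 and 80. It was 8.61, 8.22 and 6.69 CPM in Hif1a+/- non-diabetic replicates 14, 32 and 44, and 7.91, 6.29 and 6.98 CPM in Hif1a+/- diabetic replicates 66, 72 and 77. Every pair of groups overlapped, and both the highest and the lowest sample were Wt diabetic. The log2 difference between diabetic and non-diabetic pregnancy was 0.14 in Wt (interval -0.28 to 0.55) and -0.15 in Hif1a+/- hearts (interval -0.56 to 0.27). With 110 to 322 counts per library, Mertk differences carried an SE of 0.19 on the log2 scale.

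Tyro3, the TAM receptor best known from the nervous system, was 2.18, 2.64 and 3.11 CPM in Wt non-diabetic replicates 25, 42 and 89 and 2.77, 2.55 and 2.86 CPM in Wt diabetic replicates 50, 7 and 80. It was 3.00, 3.49 and 3.32 CPM in Hif1a+/- non-diabetic replicates 14, 32 and 44 and 2.47, 3.83 and 3.31 CPM in Hif1a+/- diabetic replicates 66, 72 and 77. Group means were 2.64 ± 0.463, 2.73 ± 0.156, 3.27 ± 0.25 and 3.20 ± 0.688 CPM in that order (SD, n = 3 each). The groups overlapped in each of the 5 comparisons, although all 3 Wt diabetic samples were below all 3 Hif1a+/- non-diabetic samples, which differ in both genotype and pregnancy. Diabetic minus non-diabetic pregnancy was 0.03 in Wt and -0.04 in Hif1a+/- hearts on the log2 scale, and Hif1a+/- minus Wt was 0.29 without diabetes (interval -0.14 to 0.73). Tyro3 had only 35 to 96 counts per library, where counting error alone is 10.2% to 16.9% of the value.

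The reads of Axl per read of another member in the same library do not depend on the scaling between libraries. Axl had 11.7, 11.9 and 13.9 reads per Mertk read in Wt non-diabetic replicates 25, 42 and 89 and 12.5, 12.6 and 13.7 in Hif1a+/- non-diabetic replicates 14, 32 and 44. After diabetic pregnancy it had 11.5, 14.2 and 22.8 in Wt replicates 50, 7 and 80 and 18.5, 22.6 and 28.5 in Hif1a+/- replicates 66, 72 and 77. The ratio was thus above that of all 6 non-diabetic samples in each Hif1a+/- diabetic sample and in 2 of the 3 Wt diabetic samples, the highest Wt value being that of replicate 80. Against its ligand Gas6, Axl had 0.553 ± 0.057 reads per Gas6 read in Wt non-diabetic, 0.718 ± 0.166 in Wt diabetic, 0.549 ± 0.0339 in Hif1a+/- non-diabetic and 0.764 ± 0.0723 in Hif1a+/- diabetic hearts (SD, n = 3 each). Per Pros1 read the means were 3.17 ± 0.133, 4.32 ± 0.546, 3.37 ± 0.179 and 4.88 ± 0.514 in the same order. All 3 samples of each diabetic group were above all 6 non-diabetic samples in Axl reads per Pros1 read. The lowest was 3.70 in Wt diabetic replicate 50, which had the lowest Pros1 level of all samples (28.3 CPM), and the highest non-diabetic ratio was 3.5. Per Tyro3 read the means were 39.0 ± 9.85, 49.7 ± 11.5, 31.0 ± 4.34 and 52.1 ± 13.0 in the same order. There Wt non-diabetic replicate 25, at 50.2, was above Wt diabetic replicate 50 (37.9) and Hif1a+/- diabetic replicate 72 (37.1). The share of all genes with such ratio patterns was not counted.

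**Figure D2:**
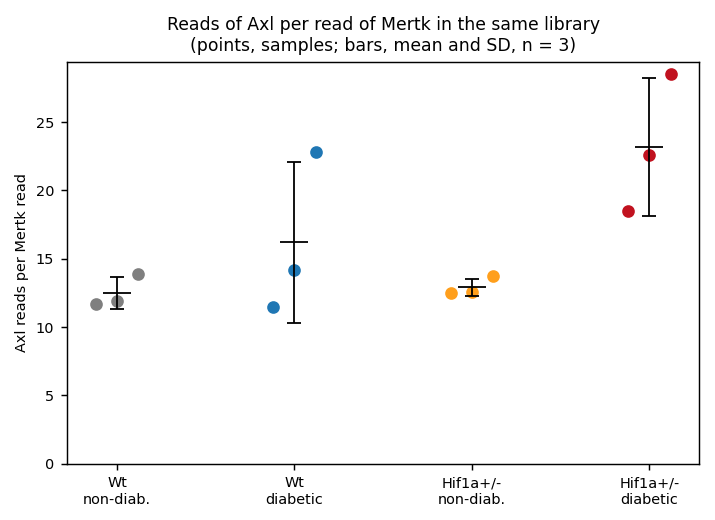
Reads of Axl per read of Mertk in the same library (y axis, from 0) for the 4 groups (x axis), with points for samples and bars for the mean and SD. The 3 Hif1a+/- diabetic samples had 18.5 to 28.5, and the 6 non-diabetic samples 11.7 to 13.9.

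Of the ligands, Gas6 was modestly higher in Hif1a+/- diabetic hearts and Pros1 was close to level. Gas6 was 177, 175 and 192 CPM in Wt non-diabetic replicates 25, 42 and 89 and 188, 183 and 179 CPM in Hif1a+/- non-diabetic replicates 14, 32 and 44. It was 169, 171 and 230 CPM in Wt diabetic replicates 50, 7 and 80 and 197, 202 and 236 CPM in Hif1a+/- diabetic replicates 66, 72 and 77. As for Axl, all 3 Hif1a+/- diabetic samples were above all 6 non-diabetic samples. The Wt diabetic group held both the lowest sample of all and a high one, replicate 80.

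Within Hif1a+/- hearts Gas6 was higher after diabetic pregnancy by 0.20 on the log2 scale (interval -0.04 to 0.45), and against Wt non-diabetic hearts by 0.22 (interval -0.03 to 0.46). In Wt hearts the difference was 0.06 with all samples and -0.10 without replicate 80. Leaving out that library also moved Hif1a+/- minus Wt after diabetic pregnancy from 0.15 to 0.31 and the interaction from 0.14 to 0.30.

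Pros1 was 33.0, 30.6 and 31.2 CPM in Wt non-diabetic replicates 25, 42 and 89 and 28.3, 32.8 and 31.9 CPM in Wt diabetic replicates 50, 7 and 80. It was 31.3, 29.6 and 28.9 CPM in Hif1a+/- non-diabetic replicates 14, 32 and 44 and 31.2, 31.7 and 36.4 CPM in Hif1a+/- diabetic replicates 66, 72 and 77. Every pair of groups overlapped. The 5 log2 differences lay between -0.08 and 0.14, and the interval of diabetic minus non-diabetic pregnancy within Hif1a+/- hearts was -0.05 to 0.34. Pros1 varied least among the members, with a pooled SD of 0.093 on the log2 scale, against 0.15 for Gas6, 0.219 for Axl, 0.218 for Tyro3 and 0.261 for Mertk.

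**Figure D3:**
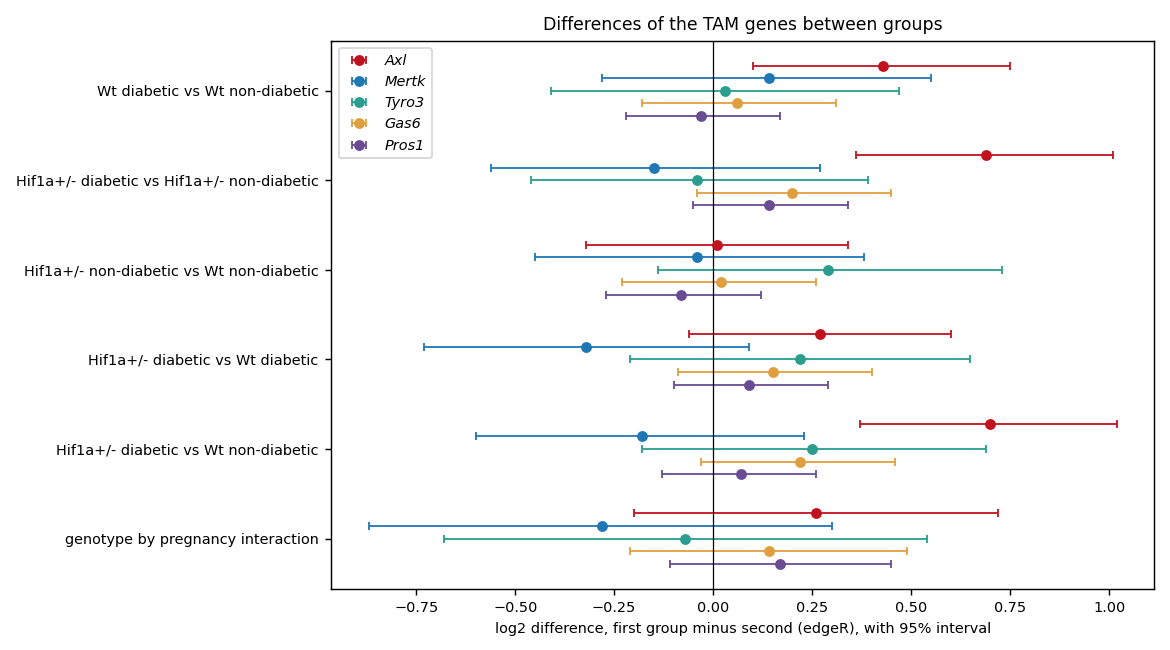
Log2 difference of each member between groups, first group minus second, and the genotype by pregnancy interaction (y axis), from the edgeR fit of all 12 samples, with points for the estimate and bars for the 95% interval (x axis). The intervals of Axl lay above 0 in the comparisons of Hif1a+/- diabetic hearts with both non-diabetic groups (0.69 and 0.70) and of Wt diabetic with Wt non-diabetic hearts (0.43), and those of the other members crossed 0.

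Read against all genes tested, edgeR called 0 of 5 members and 0.0% of 14706 genes at an adjusted p under 0.1 in each of the 5 comparisons and the interaction. At an unadjusted p under 0.05 it had 409 genes for diabetic against non-diabetic Wt, 1764 for diabetic against non-diabetic Hif1a+/-, 141 for Hif1a+/- against Wt without diabetes, 787 for Hif1a+/- against Wt after diabetes, 1302 for Hif1a+/- diabetic against Wt non-diabetic and 371 for the interaction. DESeq2, the tool the study used, called 1 of 5 members, Axl, as higher in Hif1a+/- diabetic than in Hif1a+/- non-diabetic hearts, where it called 1.44% of genes. It called Axl also in Hif1a+/- diabetic against Wt non-diabetic hearts, where it called 0.453% of genes. It called 0 of 5 members in the other comparisons, with 0.0148% of genes called in Wt diabetic against Wt non-diabetic, 0.00369% in Hif1a+/- against Wt without diabetes, 0.155% in Hif1a+/- against Wt after diabetes and 0.0% in the interaction. Without Wt diabetic replicate 80 it called Gas6 in Hif1a+/- against Wt after diabetes. Both calls of Axl rest on contrasts that were known when the members were chosen. The call within Hif1a+/- hearts was lost without Hif1a+/- non-diabetic replicate 44 or Hif1a+/- diabetic replicate 77, and the call against Wt non-diabetic hearts without Wt non-diabetic replicate 42 or Hif1a+/- diabetic replicate 77.

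Without overlap between groups, 2 of 5 members, Axl and Gas6, were higher and 0 lower in Hif1a+/- diabetic than in Hif1a+/- non-diabetic hearts, against 11.2% of tested genes higher and 13.2% lower. The same 2 members were higher than in Wt non-diabetic hearts, against 7.47% of genes higher and 7.11% lower. All 3 Hif1a+/- diabetic samples were above all 6 non-diabetic samples for these 2 members and for 4.21% of genes. In the other comparisons 0 of 5 members had groups that did not overlap. The background there was 2.14% higher and 3.40% lower in Wt diabetic against Wt non-diabetic hearts, 2.55% and 2.26% in Hif1a+/- against Wt hearts without diabetes, and 4.32% and 3.62% after diabetes. Comparisons that share a group share its 3 samples and are not independent of each other.

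Macrophage markers were highest on average in Hif1a+/- diabetic hearts, as Axl was. Endothelial markers and those of smooth muscle cells and pericytes were not. Their median log2 differences within Hif1a+/- hearts, diabetic minus non-diabetic pregnancy, were -0.06 and -0.25. In a bulk sample, more cells of a type and more RNA per cell cannot be told apart. By staining of LV sections, the study counted more macrophages only in diabetes-exposed Wt hearts. All 11 of 11 macrophage markers were higher on average in Hif1a+/- diabetic than in Hif1a+/- non-diabetic hearts, with a median log2 difference of 0.87, and none was at 0. Of these, C1qa, Mrc1, Lyve1, Itgam and Cd14 were on the study's own list of genes changed in Hif1a+/- diabetic hearts. That list came from the same libraries, so these markers are no separate evidence. The summed level of all 11 was 184 to 233 CPM in Wt non-diabetic, 189 to 298 in Wt diabetic, 134 to 208 in Hif1a+/- non-diabetic and 259 to 393 CPM in Hif1a+/- diabetic hearts. Replicate 77, highest in Axl at 199 CPM, was also highest in this sum at 393 CPM. Wt diabetic replicate 50, the lowest diabetic sample in Axl, was the lowest diabetic sample in the sum at 189 CPM, and replicates 7 and 80 were at 243 and 298 CPM. Within Wt non-diabetic hearts Axl did not follow the sum. There replicate 89 had a sum of 233 CPM with Axl at 98.0 CPM. Replicates 25 and 42 each had a sum of 184 CPM, with Axl at 109 and 93.3 CPM. Mertk did not move with the macrophage sum. In replicate 77 it was 6.98 CPM, and it was highest, at 11.0 CPM, in Wt diabetic replicate 7. That sample also had the highest endothelial marker sum, 926 CPM. Wt diabetic replicate 80, lowest in Mertk at 6.28 CPM, had the lowest endothelial sum, 647 CPM. Between them, Hif1a+/- non-diabetic replicate 32 had an endothelial sum of 862 CPM with Mertk at 8.22 CPM. Gas6 was highest in replicates 77 and 80, which had the highest and the third highest macrophage sums. Replicate 66, whose sum of 308 CPM lay between theirs, had Gas6 at 197 CPM. Replicate 72, with a sum of 259 CPM, had Gas6 at 202 CPM.

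**Figure D4:**
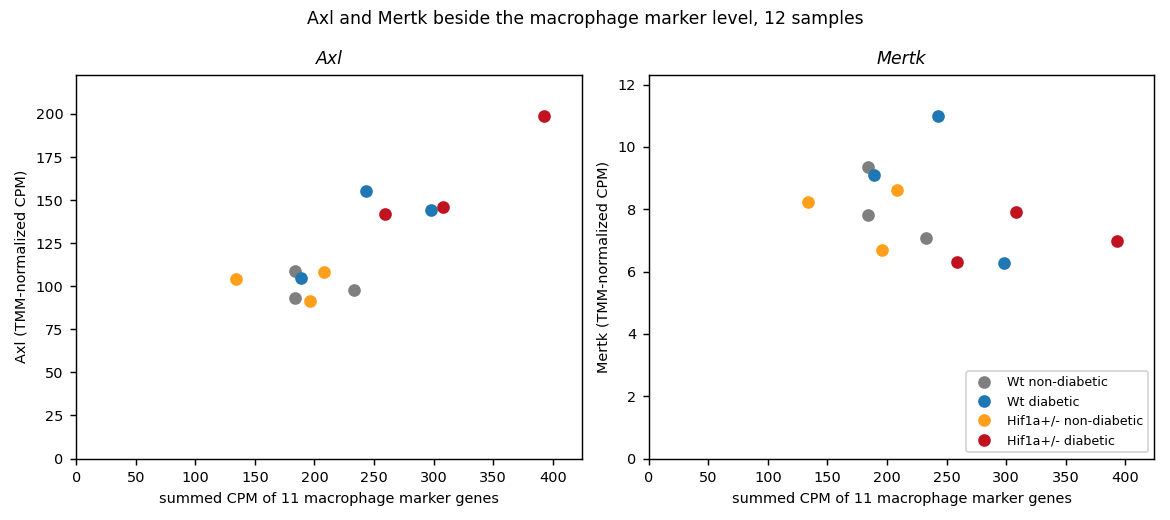
Axl (left) and Mertk (right) in CPM (y axes, from 0) against the summed CPM of 11 macrophage marker genes (x axes, from 0) in the 12 samples, coloured by group. Samples with a sum of 243 CPM or more had Axl at 142 CPM or above, while Mertk stayed between 6.28 and 11.0 CPM over the whole range. Just below, Wt non-diabetic replicate 89 had a sum of 233 CPM with Axl at 98.0 CPM. Axl was 155 CPM at the sum of 243 CPM and 146 CPM at 308 CPM.

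Adventitial and epicardial markers were higher as well, with 5 of 6 above in Hif1a+/- diabetic against Hif1a+/- non-diabetic hearts, at a median log2 difference of 0.81. Their sum was 95.6 to 125 CPM in Wt non-diabetic, 99.9 to 138 in Wt diabetic, 105 to 113 in Hif1a+/- non-diabetic and 173 to 384 CPM in Hif1a+/- diabetic hearts, with 384 CPM in replicate 77. Pi16, Mfap5 and Cd248 among them were also on the study's list of changed genes from the same libraries. All 5 of 5 fibroblast markers were above on average in the same comparison, at a median of 0.35, with sums of 894 to 1199 CPM in Wt non-diabetic, 959 to 1392 in Wt diabetic, 973 to 1009 in Hif1a+/- non-diabetic and 989 to 1281 CPM in Hif1a+/- diabetic hearts. Wt diabetic replicate 80, high in Gas6, had the highest fibroblast sum, 1392 CPM, and Hif1a+/- diabetic replicate 77 had 1269 CPM. Hif1a+/- diabetic replicate 72 had 1281 CPM, with Gas6 at 202 CPM. Of 5 dendritic cell markers 3 passed the filter, with sums of 4.09 to 7.59 CPM over all samples. Endothelial marker sums were 752 to 862 CPM in Hif1a+/- non-diabetic and 720 to 772 CPM in Hif1a+/- diabetic hearts, and those of smooth muscle cells and pericytes 966 to 1067 and 842 to 938 CPM. The part of these cells in the Axl, Mertk and Gas6 levels was not tested.

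The genes most like each member over the 12 samples, by Pearson's r of log2 CPM, are given as a description, in which the samples share their groups and marker levels. For Axl these were Il33, an alarmin cytokine (r = 0.954), Ptgs1, which encodes cyclooxygenase-1 (0.953), the matrix gene Adamtsl3 (0.945), Sfxn3 (0.939) and the microfibril-associated gene Adamtsl4 (0.928). Il33 was 2.17 to 3.80 CPM in Wt non-diabetic, 4.48 to 8.0 in Wt diabetic, 2.25 to 4.13 in Hif1a+/- non-diabetic and 5.47 to 12.5 CPM in Hif1a+/- diabetic hearts, so that both diabetic groups were above the non-diabetic ones. For Gas6 they were Scimp, an adaptor of antigen-presenting cells (0.975), the myelin enzyme gene Cnp (0.960), Gatm, of creatine synthesis (0.959), Ptpn6, which encodes the blood cell phosphatase SHP-1 (0.958), and the neonatal Fc receptor gene Fcgrt (0.956). Scimp had at most 1.37 CPM in any sample.

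For Mertk the most alike genes were others, namely Cpeb3, which encodes an RNA-binding protein (0.967), the kinase gene Mast2 (0.960), the semaphorin gene Sema3g (0.934), Resf1 (0.928) and Pdgfb, a growth factor gene of endothelial cells (0.925). Those of Tyro3 were 2700012I20Rik (0.959), Smo, the hedgehog signal transducer (0.883), 9130401M01Rik (0.878), Dph5 (0.877) and Hhat (0.868). Those of Pros1 were Scgb3a1 (0.887), the extracellular superoxide dismutase gene Sod3 (0.887), Adamtsl3 (0.886), the engulfment receptor gene Lrp1 (0.873) and Cyb561 (0.870). Between members, r was 0.77 for Axl and Pros1, 0.67 for Axl and Gas6, 0.61 for Gas6 and Pros1, -0.07 for Axl and Mertk, 0.05 for Axl and Tyro3 and -0.68 for Mertk and Gas6. In the order of likeness to Axl, Pros1 was number 169 and Gas6 number 522 of 14705 genes, and Mertk number 8159.

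Of 27 genes that make, cleave, carry or relay TAM signals, 25 were tested, Tub and Tulp1 being left out by the filter on low counts. edgeR called 0 of the 25 in every comparison. DESeq2 called 1 as higher and 0 as lower in Hif1a+/- diabetic against Hif1a+/- non-diabetic hearts, beside its 1.44% of all genes. The gene was Vav1, which encodes an exchange factor of blood cells that acts on Rac, at 1.46 to 2.41 CPM in Hif1a+/- non-diabetic and 3.61 to 5.12 CPM in Hif1a+/- diabetic samples (log2 1.13 ± 0.30 SE). Vav1 was also on the study's own list of changed genes from these libraries, known when the signalling list was chosen. The median log2 difference of the list was 0.08, beside -0.01 for all genes, and 3 of 25 were higher and 1 lower without overlap, beside 11.2% of all genes higher and 13.2% lower.

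The proteases that shed the Axl and Mertk ectodomains had log2 differences of -0.05 ± 0.09 for Adam10 and -0.07 ± 0.11 for Adam17 (SE) in the same comparison. Ggcx, the carboxylase that Gas6 and Pros1 need to bind phosphatidylserine, was 23.9 to 26.2 CPM in Hif1a+/- non-diabetic and 25.8 to 33.9 CPM in Hif1a+/- diabetic hearts (0.26 ± 0.11). Vkorc1, which recycles vitamin K, differed by 0.22 ± 0.25. Nr1h3, the liver X receptor alpha that induces Mertk, was 21.4 to 27.8 and 28.5 to 32.6 CPM (0.36 ± 0.17). Wt non-diabetic hearts had 18.6 to 33.1 CPM of Nr1h3, a range that holds that of the Hif1a+/- diabetic hearts. Of the cytokine suppressors downstream, Socs3 differed by 0.60 ± 0.29 with overlapping samples and Socs1, at about 1 CPM or less, by -0.02 ± 0.37. Lgals3, galectin-3, described as a further ligand of Mertk, differed by 0.45 ± 0.26 with overlapping samples. Apart from Vav1, none of these was called by either tool.

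Of 32 genes of the wider engulfment machinery 29 were tested, without Havcr1, Stab2 and Adgrb1. edgeR called 0 of 29 in every comparison. DESeq2 called 6 as higher and 0 as lower in Hif1a+/- diabetic against Hif1a+/- non-diabetic hearts, beside its 1.44% of all genes. All 6 were also on the study's own lists of changed genes from these libraries. The engulfment list was chosen with such results known, so its share of called genes is a description only. Without overlap, 11 of 29 were higher and 1 lower, beside 11.2% and 13.2% of all genes. Complement C1q, which bridges dying cells to phagocytes, made up 3 of the 6. C1qa was 38.8 to 58.2 CPM in Hif1a+/- non-diabetic and 77.1 to 136 CPM in Hif1a+/- diabetic hearts (log2 1.01 ± 0.24 SE), C1qb 27.0 to 37.7 and 60.9 to 112 CPM (1.25 ± 0.25), and C1qc 36.4 to 46.0 and 66.1 to 112 CPM (1.02 ± 0.22). C1qa is also in the macrophage marker list above.

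The scavenger receptor gene Stab1 was 63.5 to 94.9 CPM in Hif1a+/- non-diabetic and 126 to 134 CPM in Hif1a+/- diabetic hearts (log2 0.62 ± 0.16), and Lrp1, a receptor of calreticulin-marked cells, 150 to 163 and 209 to 267 CPM (0.56 ± 0.16). Anxa1, the annexin that promotes the clearance of neutrophils, was 32.1 to 34.8 and 39.3 to 49.9 CPM (0.42 ± 0.10). Against Wt non-diabetic hearts DESeq2 called only C1qb (0.93) and C1qc (0.78) of the 29, beside its 0.453% of all genes. Other phosphatidylserine readers gave no call. The bridging protein gene Mfge8 differed by 0.19 ± 0.10, the macrophage receptor gene Timd4 by 0.88 ± 0.40 at 1.80 to 2.66 and 3.34 to 5.96 CPM, and the scavenger receptor gene Cd36 by -0.08 ± 0.11. By quantitative PCR of larger groups, the study reported lower Cd36 mRNA in diabetes-exposed Hif1a+/- hearts than in the other groups. The median of the list was 0.09, beside -0.01 for all genes.

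**Figure D5:**
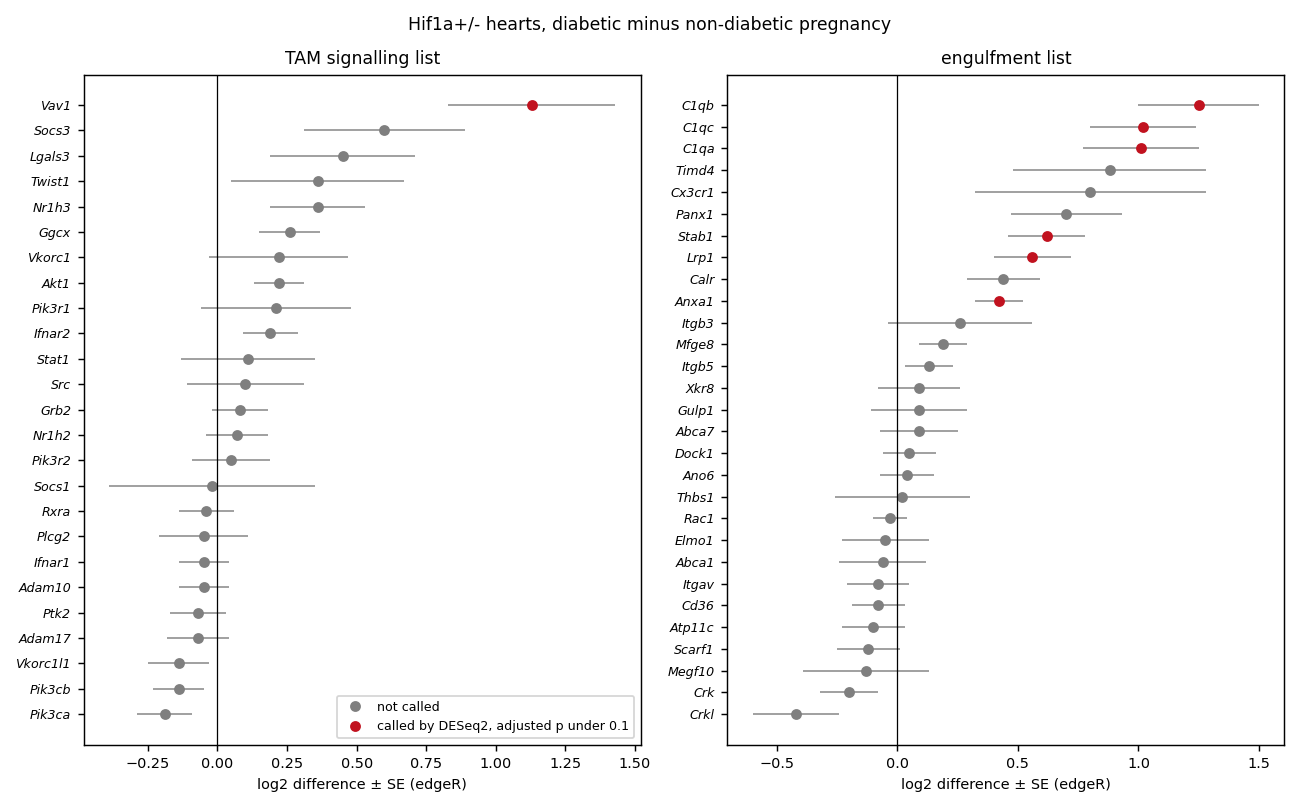
Log2 difference of Hif1a+/- diabetic minus Hif1a+/- non-diabetic hearts (x axes, with SE bars, edgeR) for the 25 tested genes of TAM signalling (left) and the 29 of engulfment (right), with genes called by DESeq2 at an adjusted p under 0.1 in red. The called genes were Vav1 (1.13) on the left and C1qb (1.25), C1qc (1.02), C1qa (1.01), Stab1 (0.62), Lrp1 (0.56) and Anxa1 (0.42) on the right.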

How the data were processed

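Counts of 3′-end RNA-seq reads per gene from 12 LVs of 12-week-old mice were analysed. Per the labels and methods, the authors trimmed reads with Trimmomatic, aligned them to GRCm38 with STAR 2.5.2b, counted them per GENCODE gene with HTSeq and deposited the raw counts. The deposited counts divided by size factors were not used, and 5 tally lines per library were left out of library sizes and tests. Gene symbols and positions came from a later GENCODE release for GRCm38 than the one the study counted with. Symbols matched 46488 of 46983 genes. The members, gene lists and tests were chosen with earlier results of these data known. The authors ran the RNA of each LV as a separate library.

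All 12 samples entered 1 edgeR 4.0.16 quasi-likelihood fit in R 4.3.3 (TMM, filterByExpr, 14706 genes, biological coefficient of variation 13.7%), with Benjamini-Hochberg adjusted p over all genes and a threshold of 0.1. The fit was tested on simulated data. DESeq2 1.42.0, no filter, other scalings and leaving out each sample were alternatives. The DESeq2 fits without each sample were added after its calls had been seen. Genes named were the members, list genes called by either tool, a fixed set of list genes, and the 5 genes most correlated with each member. Replicate numbers are animal numbers and are not shared between groups. Of 12 pairs of replicates none was within sampling noise (chi-square per gene 5.35 to 43.5, where noise alone gives 1). Promoters were taken from RefSeq for GRCm38.p6 and matched 5 of 5 members. Counting error depends on depth, from 16132442 to 39812939 counts per library.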

Additional observations from a re-analysis of the deposited data

Results flagged for a closer look

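Pros1 was picked out because the difference between genotypes pointed in opposite directions after the 2 kinds of pregnancy. Hif1a+/- minus Wt was -0.08 on the log2 scale after non-diabetic pregnancy (95% interval -0.27 to 0.12) and 0.09 after diabetic pregnancy (interval -0.10 to 0.29). The difference of the 2 log2 effects was 0.17 ± 0.13 (SE, interval -0.11 to 0.45), so that all 3 intervals held 0. No p is given for Pros1, and the interaction term of the whole-table edgeR fit called 0 genes at an adjusted p under 0.1 (371 at an unadjusted p under 0.05, and 0 by DESeq2).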

How the results depend on the processing

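The log2 differences of the members stayed within 1 SD of the spread between replicates in 115 of 115 alternatives other than leaving out a sample and in 357 of 360 that left one out. The other 3 were those of Gas6 without Wt diabetic replicate 80, where leaving out samples in turn gave -0.095 to 0.144 for Wt diabetic against Wt non-diabetic, 0.069 to 0.313 for Hif1a+/- against Wt after diabetes and 0.053 to 0.297 for the interaction. No paired analysis was possible because the replicate numbers are animal numbers that the groups do not share.

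Counts of called genes depended on the tool and the filter. In the order Wt diabetic against Wt non-diabetic, Hif1a+/- diabetic against Hif1a+/- non-diabetic, Hif1a+/- against Wt without diabetes, Hif1a+/- against Wt after diabetes and Hif1a+/- diabetic against Wt non-diabetic, edgeR called 0 in each, DESeq2 4, 201, 1, 24 and 68, and edgeR without a filter 129, 592, 33, 220 and 445, with 78 for the interaction. Leaving out samples gave 0 to 38 within Hif1a+/- hearts (38 without Hif1a+/- diabetic replicate 72, 12 and 9 without Wt diabetic replicates 80 and 7), 0 to 2 for Hif1a+/- against Wt after diabetes, 0 to 1 against Wt non-diabetic and 0 to 1 for the interaction. Members called were 1 by DESeq2 in each of the comparisons of Hif1a+/- diabetic with a non-diabetic group, and 1 without a filter in these and in Wt diabetic against Wt non-diabetic. DESeq2 without each sample called 0 to 1 in all 3 comparisons of Hif1a+/- diabetic hearts, with Gas6 called against Wt diabetic hearts only without Wt diabetic replicate 80. Of the signalling list within Hif1a+/- hearts, DESeq2 and edgeR without a filter called 1 each. Of the engulfment list they called 6 and 10 there, with 0 to 2 when samples were left out (2 without Wt diabetic replicate 80 or Hif1a+/- diabetic replicate 72), 2 and 9 against Wt non-diabetic, and no filter gave 4 for Hif1a+/- against Wt after diabetes and 3 for the interaction. The cause of these changes was not tested. Depth limits Tyro3 most, at 35 to 96 counts per library.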
